A study of Mus musculus with 12 samples.

Results

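Genes that move salt and acid across the airway surface were followed in cultured mouse tracheal epithelium: the ENaC subunit genes Scnn1a, Scnn1b and Scnn1g, with Cftr, Slc12a2, Slc26a4, Atp1b1, Atp12a and Atp6v1c2, 9 in all. Every probe whose platform symbol is one of these names was taken, 15 probes for 9 genes, of 45281 probes on the array. A probe was called detected where its detection p-value was under 0.01, and it was tested where it was detected on at least 3 of the 12 arrays. By this rule 7 of the 15 probes and 6 of the 9 genes passed, among 9381 genes tested in all. Cftr, Slc26a4 and Atp12a did not pass.

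The cells were taken from the tracheas of male C57BL/6J animals and cultured with air above them and medium below (air-liquid interface, ALI), a condition in which basal progenitors form an epithelium of ciliated and secretory cells. All cultures carried a lentiviral shRNA, and total RNA was hybridised to Illumina bead arrays. The 4 groups of 3 biological replicates were day 9 Myb shRNA, day 9 scrambled shRNA, day 3 Myb shRNA and day 3 scrambled shRNA. The age of the animals and any pooling of them are not given in the labels, and the lentivirus was delivered to the whole culture, so every cell type present could carry it. The comparisons ask what the Myb shRNA did at each day, how each arm differed between day 9 and day 3, and whether the shRNA effect differed between the days.

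Airway epithelium sets the depth and acidity of its surface liquid by moving ions, with water following. The epithelial sodium channel ENaC, built of alpha, beta and gamma subunits (Scnn1a, Scnn1b and Scnn1g), takes up sodium at the apical side, and the basolateral sodium pump, of which Atp1b1 is a beta subunit, drives that uptake. Cftr is an apical chloride and bicarbonate channel, and Slc12a2 (NKCC1) loads the cell with chloride from the basolateral side. Slc26a4 (pendrin) exchanges chloride for bicarbonate. Atp12a, a non-gastric proton and potassium pump, and the vacuolar proton pump, of which Atp6v1c2 is a C subunit, secrete acid. In airways, ionocytes are rare cells rich in Cftr and in vacuolar pump subunits.

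Between 29.3% and 33.3% of the probes on an array were detected. Levels are background-corrected, quantile-normalised intensities on the log2 scale, so a difference of 1 is a doubling, and each ± on a difference is a standard error from limma. The number of arrays limits the precision. Myb itself could not be checked: none of its 4 probes passed the filter, with 1 detection among 48 values, so the arrays do not show how far Myb RNA was reduced. In bulk RNA, fewer cells of a type and less RNA per cell cannot be told apart. Ciliated markers fell in cultures with Myb shRNA. Of 17 tested markers, 15 were lower at day 9 and 14 at day 3, against 9.48% and 11.2% of all genes called lower. Their summed signal was 18780 to 28292 in day 9 Myb arrays and 46749 to 67762 in day 9 scrambled arrays, and 8699 to 11010 in day 3 Myb arrays against 25678 to 35744 in day 3 scrambled arrays. Here and below, such a sum adds signals that are not logged, so the brightest genes of a list weigh most. Arrays numbered 3 differed from their groups for several members, above all day 3 scrambled replicate 3, and the results that rest on them are given with and without them. Leaving them all out was chosen after the values had been seen and leaves fewer arrays in each group. Any smaller standard errors and p-values in that setting are therefore not stronger evidence.

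Scnn1b and Scnn1g are neighbours on mouse chromosome 7 with 0 annotated genes between them, Scnn1a lies on chromosome 6 and Atp6v1c2 on chromosome 12. The promoters of the neighbouring pair, which were high together in cultures with Myb shRNA, and of Atp6v1c2, the member that was low, are shown from 250 bases before to 50 bases after the annotated start (RefSeq, GRCm38.p6), read in the direction of the gene. Capitals mark matches to the core of the Myb recognition site, AACNG, on either strand. The windows are chr7:121864788-121865087 (plus strand) for Scnn1b, chr7:121734229-121734528 (plus strand) for Scnn1g and chr12:17324681-17324980 (minus strand) for Atp6v1c2.
Scnn1b: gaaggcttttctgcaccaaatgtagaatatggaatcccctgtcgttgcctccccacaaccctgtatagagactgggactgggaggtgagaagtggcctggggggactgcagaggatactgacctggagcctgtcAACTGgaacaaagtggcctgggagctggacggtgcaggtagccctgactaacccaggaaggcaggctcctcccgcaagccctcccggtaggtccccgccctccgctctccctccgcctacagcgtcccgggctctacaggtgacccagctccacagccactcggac
Scnn1g: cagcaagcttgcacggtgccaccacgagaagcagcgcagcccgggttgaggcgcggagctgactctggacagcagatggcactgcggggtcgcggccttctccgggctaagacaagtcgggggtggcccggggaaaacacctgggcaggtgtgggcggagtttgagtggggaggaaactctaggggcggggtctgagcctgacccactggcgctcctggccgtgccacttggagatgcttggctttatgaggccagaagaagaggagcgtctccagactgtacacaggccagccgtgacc
Atp6v1c2: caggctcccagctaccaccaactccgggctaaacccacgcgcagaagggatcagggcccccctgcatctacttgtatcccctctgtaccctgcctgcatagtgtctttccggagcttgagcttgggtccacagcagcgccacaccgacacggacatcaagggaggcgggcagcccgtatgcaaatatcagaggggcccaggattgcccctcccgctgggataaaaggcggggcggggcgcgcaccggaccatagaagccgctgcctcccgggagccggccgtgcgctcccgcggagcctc

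The Scnn1b window holds 1 match to AACNG, at -116 from the start, and the windows of Scnn1g and Atp6v1c2 hold 0. Of 32851 annotated mouse promoters of the same length, 80.3% hold at least 1 match. The Sp1 box GGGCGG, searched on both strands, matched 1 time in the Scnn1b window, 2 times in that of Scnn1g and 1 time in that of Atp6v1c2, and 35.7% of all promoters hold it. Neither the glucocorticoid receptor motif TGTTCT (18.97% of promoters) nor TATAAA (13.6%) matched in these 3 windows. Their GC content was 61.7%, 64.7% and 66.0% for Scnn1b, Scnn1g and Atp6v1c2, against a median of 52.7% over all promoters. Promoters of 6 of the 9 members were kept, with any entry on chromosome 18, where Slc12a2 lies, left out. A match is only a run of letters, and its absence from a window of this length says nothing of the factor.

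The genes of all ENaC subunits were higher with Myb shRNA at both days, with larger measured differences for Scnn1b and Scnn1g than for Scnn1a. At day 9, 5 of the 6 tested members were called, 4 higher and 1 lower, where 16.1% of all genes tested were called (6.65% higher and 9.48% lower). Day 3 gave the same counts of 4 higher and 1 lower among 6, against 22.7% of all genes (11.5% higher and 11.2% lower). In the called members the Myb and scrambled groups did not overlap at either day, which was so for 36.7% of all genes at day 9 and 36.6% at day 3. The members were chosen with earlier results of these data known, so their counts against these shares are no test of the set.

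Scnn1b, the beta subunit, had log2 levels of 10.25, 10.23 and 10.71 in day 9 Myb cultures, against 8.28, 8.49 and 7.94 in day 9 scrambled cultures. All Myb arrays lay above all scrambled arrays, and the difference was 2.16 ± 0.40, or 4.47-fold (limma, adjusted p = 0.00222). At day 3 the levels were 9.89, 9.86 and 10.85 with Myb shRNA, against 9.05, 9.20 and 7.36 with scrambled shRNA. The groups were apart here too, with the third array of each the most extreme, and the difference was 1.66 ± 0.40 (limma, adjusted p = 0.00910). Without day 3 scrambled replicate 3 it was 1.07 ± 0.27 (limma, adjusted p = 0.00973). Without all arrays numbered 3 the difference came to 1.86 ± 0.10 for day 9 (limma, adjusted p = 4.63e-09) and to 0.74 ± 0.10 for day 3 (limma, adjusted p = 4.46e-05). That last setting was chosen after the values had been seen and has fewer arrays a group, so its small errors are no stronger support.

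Scnn1g, the gamma subunit, had levels of 10.36, 10.35 and 10.18 in day 9 Myb cultures and 8.76, 9.18 and 8.26 in day 9 scrambled cultures. The Myb arrays stood close together, well above the scrambled ones, by 1.56 ± 0.34 or 2.96-fold (limma, adjusted p = 0.00668). Day 3 levels were 10.42, 10.29 and 11.14 with Myb shRNA, against 9.51, 9.76 and 8.25 with scrambled shRNA. Again no arrays overlapped, and the difference was 1.44 ± 0.34 (limma, adjusted p = 0.00852), which came to 0.98 ± 0.26 without day 3 scrambled replicate 3 (adjusted p = 0.0134) and 0.72 ± 0.13 without all arrays numbered 3 (adjusted p = 0.000429).

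Scnn1a, the alpha subunit, which the channel needs for its activity, had levels of 11.92, 11.95 and 12.56 in day 9 Myb cultures and 11.33, 11.22 and 11.77 in day 9 scrambled cultures. The lowest Myb array lay above the highest scrambled array by a small margin, and the difference was 0.70 ± 0.19, or 1.63-fold (limma, adjusted p = 0.0243). At day 3 the levels were 11.78, 11.77 and 12.32 with Myb shRNA and 11.13, 11.24 and 11.30 with scrambled shRNA, a difference of 0.73 ± 0.19 (limma, adjusted p = 0.0157). This was the called member whose call depended on single arrays. At day 9 it was lost without Myb replicate 3 (0.50, adjusted p = 0.0940), scrambled replicate 1 (0.65, adjusted p = 0.0821) or scrambled replicate 2 (0.59, adjusted p = 0.103), and at day 3 without Myb replicate 3 (0.55, adjusted p = 0.0756) or scrambled replicate 1 (0.69, adjusted p = 0.0558). Replicates with the same number pointed upwards in 3 of 3 pairs at each day for each of the subunits.

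**Figure D1:**
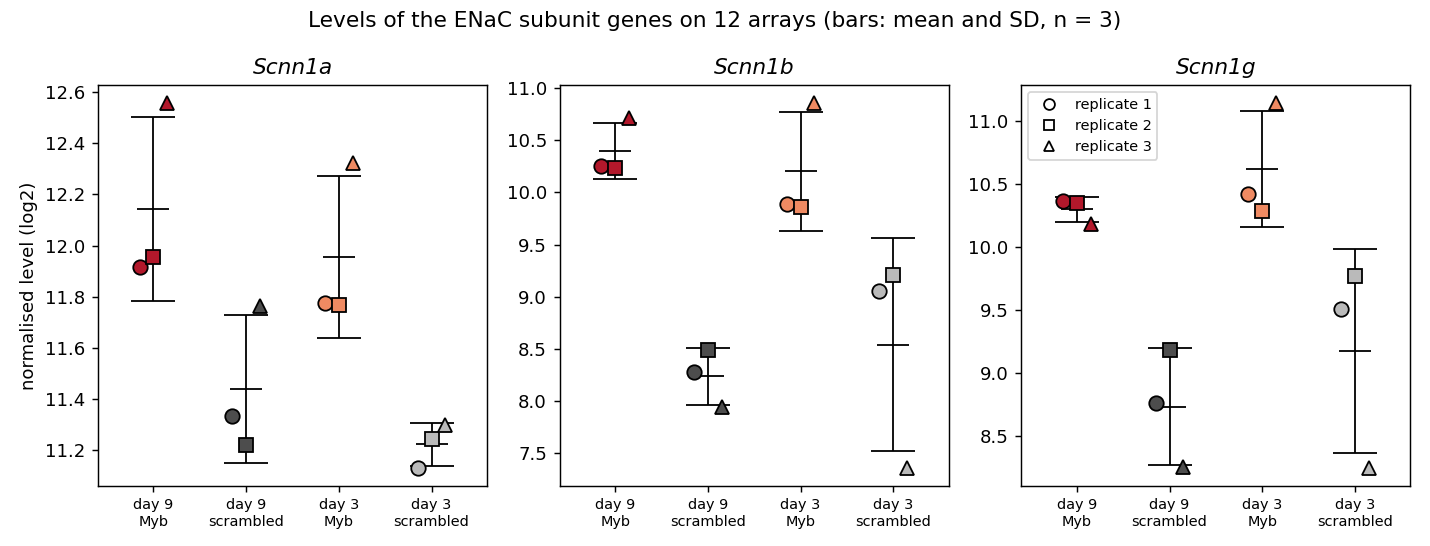
Normalised log2 level of the ENaC subunit genes Scnn1a, Scnn1b and Scnn1g (vertical axes, with their own ranges) on each of the 12 arrays by group, with the marker shape giving the replicate number and the bars the mean and SD of 3 arrays. Myb shRNA arrays lie above the scrambled arrays of the same day in every panel, and day 3 scrambled replicate 3 is the lowest array for Scnn1b (7.36) and Scnn1g (8.25).

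Whether the subunits changed to unequal extents was tested on the difference between their shRNA effects. This comparison was chosen after the values had been seen, so its p-values are no independent support. The shRNA difference of Scnn1b exceeded that of Scnn1a by 1.46 at day 9 and 0.93 at day 3 on the log2 scale, a mean of 1.19 (exact permutation of shRNA labels within each day, two-sided, 400 arrangements, p = 0.005, the smallest they can give; 0.015 adjusted over 3 pairs of subunits). For Scnn1g over Scnn1a the excess was 0.86 and 0.71, with a mean of 0.78 (exact permutation p = 0.045, adjusted 0.045), and for Scnn1b over Scnn1g it was 0.60 and 0.22, with a mean of 0.41 (exact permutation p = 0.01, adjusted 0.015). When labels were turned round only within the 6 pairs of same-numbered arrays (64 arrangements, smallest p 0.03125), the exact permutation p was 0.03125, 0.0625 and 0.0625, and 0.0625 for each after adjustment, so no pair of subunits passed. The excess of Scnn1b over Scnn1a was above 0 in 6 of 6 pairs, and the others in 5 of 6. Both sets of arrangements treat the days as independent. Same-numbered arrays of the 2 days also deviated together, so the 6 pairs may not be independent and these p-values may be too small. Without the arrays numbered 3 the excess over Scnn1a was 1.20 for Scnn1b and 0.72 for Scnn1g at day 9, but 0.16 and 0.13 at day 3, so that the unequal change at day 3 rests on those arrays. With the authors' processed values the means of both days were 1.07, 0.71 and 0.36.

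Slc12a2, the basolateral chloride loader, was also higher with Myb shRNA. Its levels were 11.11, 11.04 and 11.42 in day 9 Myb cultures and 10.42, 10.51 and 10.12 in day 9 scrambled cultures, a difference of 0.84 ± 0.16, or 1.79-fold (limma, adjusted p = 0.00281). At day 3 they were 11.42, 11.03 and 11.70 with Myb shRNA, against 10.42, 10.42 and 10.41 with scrambled shRNA, a difference of 0.96 ± 0.16 (limma, adjusted p = 0.000871). The scrambled arrays of day 3 agree to the first decimal, and no Myb array of either day reached down to a scrambled one. Without the arrays numbered 3 the differences were 0.61 ± 0.11 at day 9 and 0.80 ± 0.11 at day 3.

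Slc12a2 has 5 probes, all assigned to the same transcript. A second probe detected on all 12 arrays gave 9.84, 9.91 and 10.29 in day 9 Myb cultures and 9.12, 9.32 and 8.95 in day 9 scrambled cultures, and 10.20, 9.79 and 10.75 in day 3 Myb cultures against 9.04, 9.21 and 9.05 in day 3 scrambled cultures. In a fit over all probes its differences were 0.88 ± 0.20 at day 9 (limma, adjusted p = 0.00907) and 1.15 ± 0.20 at day 3 (limma, adjusted p = 0.00122). The other probes of this gene were detected on 0 of 12 arrays.

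Atp1b1, the sodium pump beta subunit, did not pass the test for either shRNA comparison. Its levels were 13.50, 13.57 and 14.07 in day 9 Myb cultures and 13.34, 13.47 and 13.62 in day 9 scrambled cultures, and 13.31, 13.19 and 13.60 in day 3 Myb cultures against 13.10, 13.36 and 13.80 in day 3 scrambled cultures. These groups overlap at both days. The difference was 0.24 at day 9, with a 95% confidence interval of -0.15 to 0.63 (limma, adjusted p = 0.438), and -0.05 at day 3, with an interval of -0.44 to 0.34 (limma, adjusted p = 0.864). Its sign at day 3 changed under 3 alternative settings.

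Atp6v1c2, the proton pump C subunit, was the member that fell with Myb shRNA. Its levels were 7.19, 7.59 and 7.60 in day 9 Myb cultures and 8.49, 8.38 and 8.84 in day 9 scrambled cultures, a difference of -1.11 ± 0.18, or 0.463-fold (limma, adjusted p = 0.000966). Day 3 levels were 6.40, 6.71 and 6.68 with Myb shRNA and 7.56, 7.52 and 8.02 with scrambled shRNA, a difference of -1.11 ± 0.18 (limma, adjusted p = 0.000727). Every Myb array lay below every scrambled array of its day, with intervals of -1.50 to -0.72 at day 9 and -1.50 to -0.71 at day 3. A second probe of Atp6v1c2 was detected on 2 of 12 arrays, 1 in each scrambled group, and did not pass the filter.

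**Figure D2:**
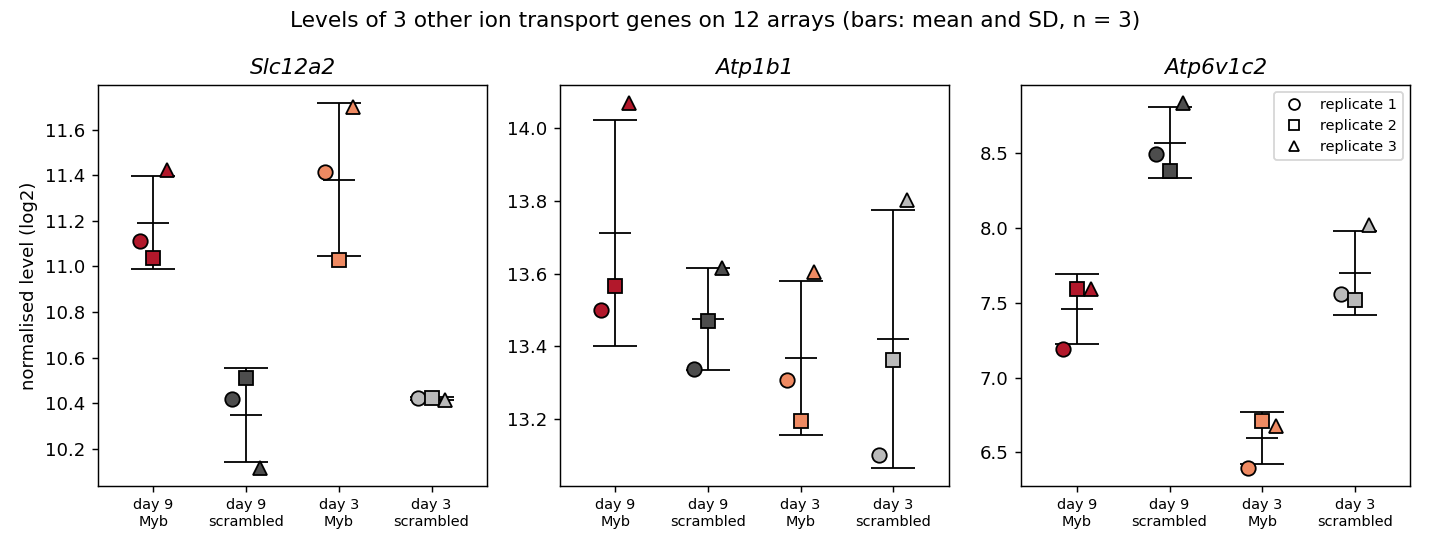
Normalised log2 level of Slc12a2, Atp1b1 and Atp6v1c2 (vertical axes, with their own ranges) on each of the 12 arrays by group, with the marker shape giving the replicate number and the bars the mean and SD of 3 arrays. Slc12a2 is higher and Atp6v1c2 lower in Myb shRNA arrays of both days without overlap, while the groups overlap for Atp1b1.

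Cftr was not detected on any array. Its first probe gave signals of -0.0951 to 22.96 over the 12 arrays and its second probe -9.77 to 16.6, in units of background-subtracted intensity, where 0 is the background. Slc26a4 was likewise detected on 0 of 12 arrays, with signals of 7.02 to 25.6. Atp12a was detected on 2 of 12, namely replicate 3 of each Myb group, with signals of 13.02 to 30.8. For comparison, the tested member with the weakest signal, Atp6v1c2, ranged over 77.3 to 503 on its main probe. No change in Cftr, Slc26a4 or Atp12a could be measured here, in either direction.

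**Figure D3:**
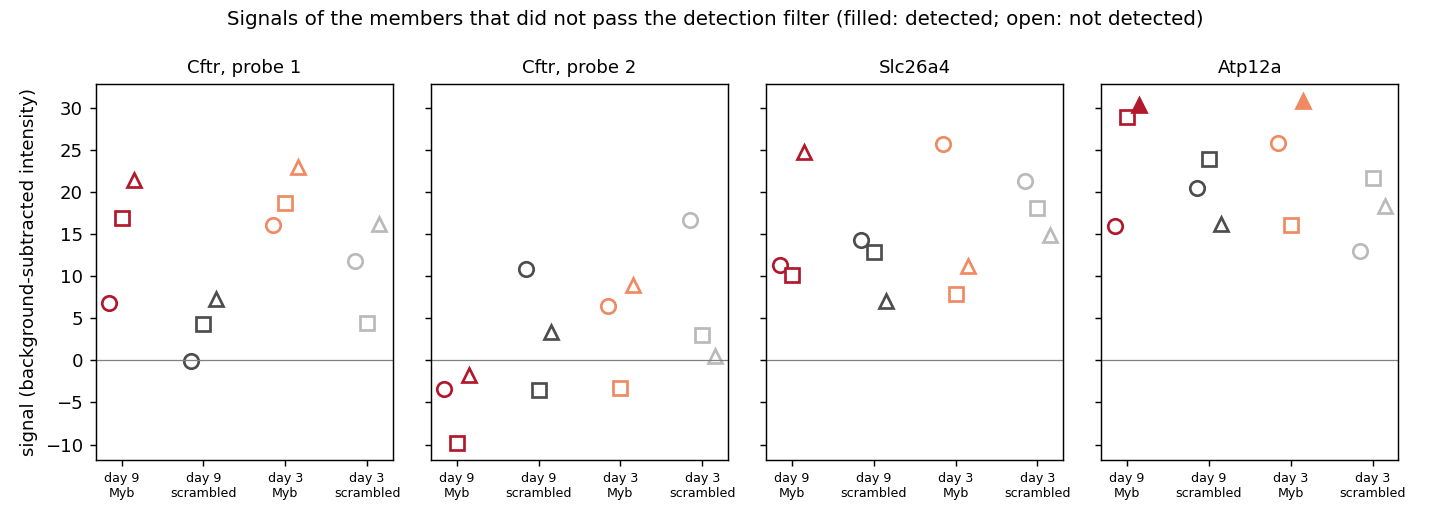
Background-subtracted signal (vertical axis, intensity units) of both Cftr probes and of the Slc26a4 and Atp12a probes on the 12 arrays by group, with filled markers for detected values. Cftr and Slc26a4 have 0 filled markers, and Atp12a has 2, in replicate 3 of the day 9 Myb and day 3 Myb groups.

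Between the days, Atp6v1c2 was the only one of the 6 tested members called in either arm in the main fit, which has no block. With the replicate number as a block Atp1b1 was called too in Myb cultures. With Myb shRNA Atp6v1c2 was higher at day 9 than at day 3 by 0.86 ± 0.18 (limma, adjusted p = 0.00472), and with scrambled shRNA by 0.87 ± 0.18 (limma, adjusted p = 0.00537). Of all genes, 16.7% were called between the days with Myb shRNA (9.26% higher and 7.43% lower at day 9) and 17.1% with scrambled shRNA (9.55% higher and 7.52% lower at day 9). The day groups of Atp6v1c2 did not overlap in either arm, as for 34.7% of all genes with Myb shRNA and 32.3% with scrambled shRNA. Its mean level was 7.46 in day 9 Myb, 8.57 in day 9 scrambled, 6.59 in day 3 Myb and 7.70 in day 3 scrambled cultures. Of the neighbours in the order of these levels, those that overlapped were day 9 Myb and day 3 scrambled, whose arrays spanned 7.19 to 7.60 and 7.52 to 8.02.

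The ENaC genes and Slc12a2 showed no day call in the main fit. In Myb shRNA cultures the day 9 minus day 3 difference was 0.19 for Scnn1a, 0.20 for Scnn1b, -0.32 for Scnn1g and -0.19 for Slc12a2, with adjusted p of 0.508 to 0.807 (limma). In scrambled cultures it was 0.22, -0.30, -0.44 and -0.07 for the same genes, with adjusted p of 0.405 to 0.795 (limma). For each of these genes both Myb group means lay above both scrambled means. Those of Scnn1b were 10.40 in day 9 Myb, 8.24 in day 9 scrambled, 10.20 in day 3 Myb and 8.54 in day 3 scrambled cultures, and the arrays of the 2 days overlapped in each arm.

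Scnn1b and Scnn1g in scrambled cultures are where a single array decided the outcome. Without day 3 scrambled replicate 3, Scnn1b fell by 0.89 at day 9 relative to day 3 (limma, adjusted p = 0.0244) and Scnn1g by 0.90 (limma, adjusted p = 0.0205). Without all arrays numbered 3, a setting chosen after the values had been seen, the falls were 0.75 (limma, adjusted p = 4.71e-05) and 0.66 (limma, adjusted p = 0.000900). In that setting Scnn1b was higher at day 9 by 0.37 with Myb shRNA (limma, adjusted p = 0.0133). Atp1b1 differed between the days by 0.34 in Myb cultures, higher at day 9 in 3 of 3 pairs. That difference had an adjusted p of 0.240 without a block, and passed with the replicate number as a block (adjusted p = 0.0132) and without the arrays numbered 3 (0.28, adjusted p = 0.0232).

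Whether the shRNA effect differed between the days was tested as the interaction, for which 0 of the 6 members and 1.65% of all genes (0.746% higher and 0.906% lower) were called by limma, with 0 of the 6 at an unadjusted p under 0.05. For Scnn1b the effect was larger at day 9 by 0.50 ± 0.56, with an interval of -0.72 to 1.72 (limma, adjusted p = 0.728). Without the arrays numbered 3, a setting chosen after the values had been seen, this excess was 1.12 ± 0.14 (limma, adjusted p = 0.000190). That of Scnn1g was 0.67 ± 0.18 (limma, adjusted p = 0.0227). For Atp6v1c2 it was -0.01, with an interval of -0.56 to 0.55 (limma, adjusted p = 0.995).

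**Figure D4:**
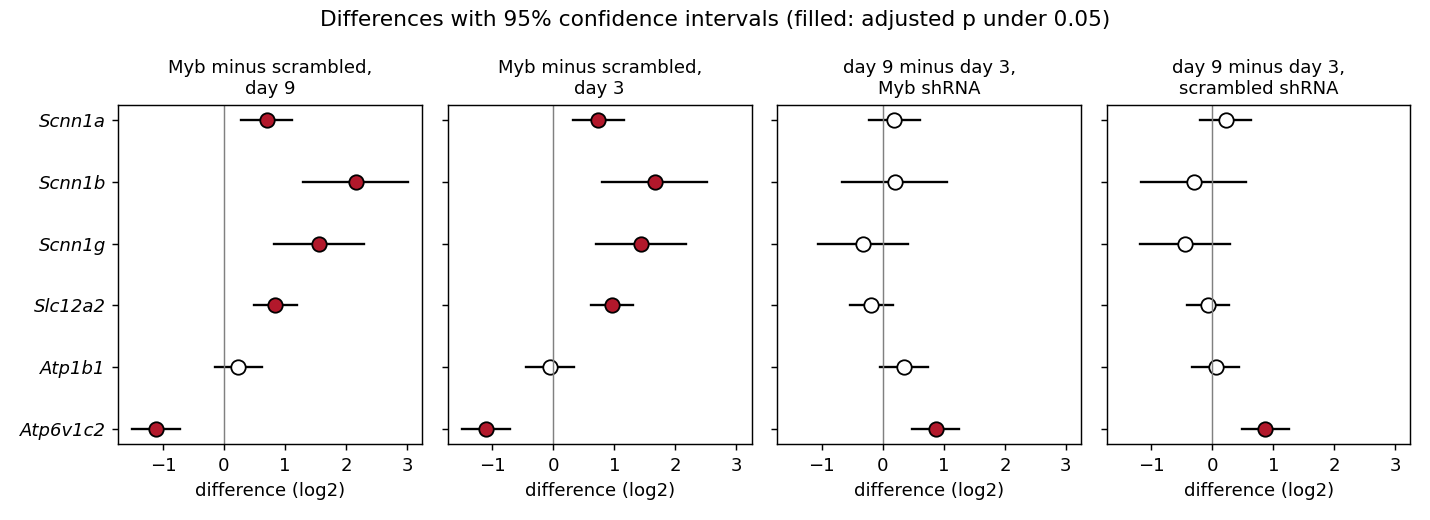
Difference in log2 level (horizontal axis) of the 6 tested members in the 4 comparisons, with 95% confidence intervals from limma and filled markers for an adjusted p under 0.05. In both shRNA comparisons 4 members are filled to the right of 0 and Atp6v1c2 to the left, and in both day comparisons only Atp6v1c2 is filled.

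The genes whose pattern over the 12 arrays was most like that of a member, by the root mean square (RMS) difference of levels centred on each gene's mean, were looked up among all 9381 genes. For Scnn1b the nearest was Scnn1g, at 0.342, followed by Ogn at 0.399 and Sh3tc2 at 0.416, where the RMS deviation of Scnn1b from its own mean was 1.09. Scnn1g was nearest to Cavin2 (0.225), Sh3tc2 (0.300) and Flrt3 (0.307), with its own RMS deviation at 0.885. Scnn1a lay at 0.805 from Scnn1b and 0.705 from Scnn1g, farther than its own RMS deviation of 0.439, and its nearest genes were Zswim8 (0.133), Phf2 (0.134) and Mapkapk2 (0.148).

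Slc12a2 was nearest to the mechanically gated channel gene Piezo1 (0.0973), then Lrrk1 (0.142) and Eps8l2 (0.160), with its own RMS deviation at 0.492. Atp6v1c2 was nearest to Tspan2 (0.121), Dpcd (0.140), a gene linked to cilia, and Ccdc87 (0.170), with its own RMS deviation at 0.729. The 12 arrays share a platform and a normalisation, and these values are descriptions.

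Markers of cell types moved with the members. Alveolar type 1 markers, of a lung cell that also carries ENaC, rose beside the ENaC genes, with 8 of 10 tested markers higher and 0 lower at each day. Of all genes tested, 16.1% were called at day 9 and 22.7% at day 3. Between the days these markers were lower at day 9 for 2 of 10 with Myb shRNA and 8 of 10 with scrambled shRNA. There 0 of them were higher, 16.7% and 17.1% of all genes were called, and no ENaC gene was called in the main fit. Without day 3 scrambled replicate 3, Scnn1b and Scnn1g were called lower at day 9 in scrambled cultures, as given above. The summed signal of the 12 alveolar type 1 genes, in which bright genes weigh most, was 42950 to 46384 in day 9 Myb and 27454 to 30338 in day 9 scrambled arrays. At day 3 it was 47025 to 55570 in Myb and 37141 to 47376 in scrambled arrays, where the ranges overlap. Ager rose by 4.47 at day 9 and 2.41 at day 3, Emp2 by 1.52 and 1.17, and Akap5 by 3.54 and 2.05, while Rtkn2 was detected on 0 arrays. Clic5 and Aqp5 of the ion transport lists are on this list too. Basal cell markers were higher for 4 of 17 at day 9 and 7 of 17 at day 3, against 16.1% and 22.7% of all genes called in either direction. With the replicate number as a block they were 8 and 9, and over the 22 alternatives 3 to 10 and 4 to 15. Between the days 6 of 17 were lower at day 9 with Myb shRNA and 3 of 17 with scrambled shRNA (6 with the block), and none was higher. Of these markers Lamb3 was up with Myb shRNA by 1.19 at day 9 and 1.72 at day 3, and the summed signal of the list was 23503 to 25460 in day 9 Myb and 16594 to 19907 in day 9 scrambled arrays, and 34787 to 43381 in day 3 Myb and 24731 to 31027 in day 3 scrambled arrays. The cultures came from tracheas, and whether they held any alveolar type 1 cells was not tested. Nor was the part of either cell type in the ENaC result.

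Few markers of fibroblasts and muscle, leukocytes or endothelium were detected. The counts below stand against 16.1% of all genes called between the shRNAs at day 9 and 22.7% at day 3. Of 12 fibroblast and muscle markers 4 were tested, with 1 higher and 0 lower with Myb shRNA at each day, namely Sparc, by 1.56 and 1.98. Their summed signal was 1092 to 1359 in day 9 Myb and 583 to 750.1 in day 9 scrambled arrays, and 4207 to 4732 in day 3 Myb and 1676 to 2358 in day 3 scrambled arrays, without overlap, while Col1a1, Col1a2, Col3a1, Lum, Pdgfra, Pdgfrb, Tagln and Des were detected on 0 arrays. Of 10 leukocyte markers 4 were tested. Cd74 rose by 0.77 at day 9 and 1.03 at day 3, Lyz2 fell by 1.31 and 1.80, and Cd68 fell at day 3 by 0.60. The summed signal of the list was 4067 to 5049 in day 9 Myb and 10026 to 13243 in day 9 scrambled arrays, and 1642 to 2988 in day 3 Myb and 6376 to 9984 in day 3 scrambled arrays, again without overlap. Bright genes weigh most in this sum, and the called leukocyte markers moved in both directions. Ptprc, Cd52, Tyrobp, Fcer1g, Coro1a and Cd3e were detected on 0 arrays. Of 3 tested endothelial markers 2 were higher and 0 lower at day 9, and 1 was higher and 1 lower at day 3, with Pecam1, Cdh5, Tie1 and Tek detected on 0 arrays. Among markers of other epithelial cells, goblet markers were lower for 2 of 4 at each day and higher for 0, and of 2 tested tuft markers 1 was higher and 1 lower at day 9 and 1 was lower at day 3. Of 3 tested alveolar type 2 markers 1 was lower at day 9 and 0 were called at day 3 (limma, with 1 at an unadjusted p under 0.05), and the 1 tested neuroendocrine marker was higher at day 3. The part of these cells in the results was not tested.

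Ciliated markers moved with Atp6v1c2 in all 4 comparisons, falling with Myb shRNA as given above. At day 9 they rose for 15 of 17 with Myb shRNA and 14 of 17 with scrambled shRNA, against 16.7% and 17.1% of all genes called. Club cell markers, of secretory cells, were lower for 8 of 14 and higher for 1 of 14 at each day with Myb shRNA, Scgb1a1 falling by 2.20 at day 9 and 1.23 at day 3. Squamous markers were higher for 5 of 10 at day 9 and 3 of 10 at day 3, and none of these 10 was lower. Over the 22 alternatives 2 to 6 squamous markers were higher at day 9 and 0 to 5 at day 3, and 0 to 1 and 0 to 2 were lower. Of all genes tested, 16.1% were called in either direction at day 9 and 22.7% at day 3. The part of these cells in the Atp6v1c2 result was not tested. Of 15 ionocyte markers, 5 were tested, and they include Atp6v1c2 and Slc12a2 themselves. These 5 were called in both directions with Myb shRNA, 2 higher and 1 lower at day 9 and 1 higher and 2 lower at day 3. Of all genes, 16.1% and 22.7% were called. The ionocyte factors Foxi1 and Ascl3 were detected on 1 array and on 2 arrays, all of them scrambled, and Cftr, Foxi2, Atp6v0d2, Atp6v1g3, Moxd1, Coch and Hepacam2 on 0. The ionocyte share of the cultures is therefore not measurable on these arrays.

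Among regulators of ENaC, 1 of 19 tested genes was higher and 0 lower at day 9 with Myb shRNA, where 16.1% of all genes were called, and 6 were higher and 1 lower at day 3, against 22.7% of all genes. With the replicate block 4 were higher and 1 lower at day 9 and 9 higher and 2 lower at day 3, and over the 22 alternatives 1 to 5 and 4 to 12 were higher. The list's median difference was 0.20 at day 9 and 0.39 at day 3, against 0.05 and 0.00 over all genes. Wnk4, a kinase that regulates sodium and chloride transport, rose at both days, by 0.90 ± 0.15 at day 9 (limma, adjusted p = 0.000998) and 0.66 ± 0.15 at day 3 (limma, adjusted p = 0.00620). At day 3 the protease inhibitor Serpine2 rose by 1.27, the secreted airway protein Bpifa1, which limits ENaC at the surface, by 0.84, and the protease St14 by 0.61, while the protease Tmprss4 fell by 0.76. The ubiquitin ligase Nedd4 rose by 0.72 and the protease inhibitor Spint1 by 0.31, and both calls were lost when any of 3 or more single arrays was left out. For Tmprss4 and Serpine2 the shRNA effect differed between the days, by 0.79 (limma, adjusted p = 0.0293) and -1.25 (limma, adjusted p = 0.0151), and these calls were lost without any of 8 single arrays for Tmprss4 and without day 3 Myb replicate 1 for Serpine2 (adjusted p = 0.0540). The steroid receptors Nr3c1 and Nr3c2 and the cortisol-inactivating enzyme Hsd11b2 were detected on 0 arrays.

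Between the days, the ubiquitin hydrolase Usp2 was higher at day 9 by 1.21 with Myb shRNA and 1.51 with scrambled shRNA, and Bpifa1 by 0.70 and 1.23. Tsc22d3 (GILZ), a glucocorticoid-induced regulator of ENaC, rose by 0.62 with Myb shRNA, and in that arm Serpine2 fell by 1.60 and St14 by 0.61. In scrambled cultures Tmprss2, a protease, rose by 0.72 and Tmprss4 fell by 0.47. In all, 3 of 19 were higher and 2 lower at day 9 with Myb shRNA (4 and 4 with the replicate block), against 16.7% of all genes, and 3 higher and 1 lower with scrambled shRNA, against 17.1%. The calls of Usp2 with Myb shRNA and of Tmprss2 and Tmprss4 were each lost without 2 or 3 single arrays.

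Other anion channels and exchangers were called in both directions. At day 9, 3 of 16 tested genes were higher and 2 lower with Myb shRNA, against 16.1% of all genes called, and at day 3, 4 were higher and 1 lower, against 22.7%. With the replicate block the day 3 counts were 7 higher and 1 lower. Clic5, of the chloride intracellular channel family and also on the alveolar type 1 list, was detected in 3 of 3 day 9 Myb arrays. It was not well above background in the scrambled arrays of that day. A bound set at the lowest detected signal of each scrambled array makes it at least 1.89-fold higher. The limma test, on levels without that bound, gave an adjusted p of 6.97e-05. At day 3 Clic5 rose by 1.01, and there 1 of 3 scrambled arrays had it above background. Clic6 of the same family fell by 1.14 at day 9 and 0.76 at day 3, and Clic3 rose by 0.99 at day 9. The calcium-activated chloride channel gene Ano1 rose at day 3 by 1.11 (limma, adjusted p = 0.000882), and Slc4a4, a basolateral sodium bicarbonate cotransporter, by 1.12 (limma, adjusted p = 0.00253). Best1, another calcium-activated anion channel, fell by 1.45 at day 9 (limma, adjusted p = 0.000114). The interaction was called for Ano1 (-1.15), a call lost without any of several single arrays. Best1 was detected on 0 of 6 arrays at day 3, so its shRNA effect was not measured there. The call of Clic6 at day 3 was lost in the same way, as were those of Slc4a5 at day 9 (0.58) and Ano10 at day 3 (0.47).

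Clca3b, of a family named for calcium-activated chloride currents, had the largest difference of any gene on the ion transport lists. Its mean level was 7.89 in day 9 Myb cultures and 11.26 in day 9 scrambled cultures, a fall of 3.36 ± 0.30 (limma, adjusted p = 1.94e-05). The fall differed from the day 3 effect by -2.79 ± 0.43 (limma, adjusted p = 0.00687), and in scrambled cultures the gene was higher at day 9 by 2.08 ± 0.30 (limma, adjusted p = 0.000436). These calls held in all 22 alternative settings run for list genes. Clca1, the goblet cell member, was higher at day 9 by 0.81 in scrambled cultures, a call lost without day 3 scrambled replicate 1 (adjusted p = 0.0543), and the other 5 listed CLCA genes did not pass the filter.

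Regulators of Cftr were higher for 3 of 14 tested genes at day 9 and 4 of 14 at day 3 with Myb shRNA, and lower for 0 at both, where 16.1% and 22.7% of all genes were called. Without day 9 Myb replicate 3 the day 9 count was 0, over the 22 alternatives the day 3 count was 1 to 8, and with the replicate block 6 were higher and 1 lower at day 3. They include the phosphodiesterase Pde4d at 0.48 and 0.44, and, among the calls at day 3, the kinase subunit Prkar1a at 0.46, the syntaxin Stx1a at 0.60 and the nucleotide receptor P2ry6. P2ry6 was not well above background in day 3 scrambled arrays and, by a bound as for Clic5, was at least 1.20-fold higher in day 3 Myb arrays. The limma test, on levels without that bound, gave an adjusted p of 0.00942. Vamp8 and Dnajc5 were higher by 0.44 each at day 9. The calls of Pde4d, Stx1a, Vamp8, Dnajc5 and Prkar1a were each lost without at least 1 single array. Between the days Stx1a fell by 1.16 and the chaperone Hspa8 by 0.60 with Myb shRNA, and by 0.58 and 0.35 with scrambled shRNA, where both calls were lost without any of several single arrays.

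Most other tested genes of the sodium pump and the vacuolar pump did not pass the test between the shRNAs. Of 13 listed sodium pump and FXYD genes, 5 were tested, namely Atp1b3, Fxyd2, Fxyd3, Fxyd5 and Fxyd6, with no alpha subunit among them. Of these 5, 0 were higher and 1 lower at day 9, namely Fxyd6 by 1.31 (lost without any of 3 single arrays), and 0 were called at day 3 (limma, with 1 at an unadjusted p under 0.05 and 1 called with the replicate block). Of 17 tested vacuolar pump subunits other than Atp6v1c2, 1 rose and 1 fell at each day, against 16.1% and 22.7% of all genes called. Atp6v0a1, an a subunit of the membrane sector, rose by 0.76 ± 0.12 at day 9 (limma, adjusted p = 0.000626) and 0.65 ± 0.12 at day 3 (limma, adjusted p = 0.00136), opposite to Atp6v1c2. Atp6v0e2 fell by 0.73 at day 9 (lost without any of 2 single arrays) and Atp6v1d by 0.55 at day 3. Between the days, 5 of 17 were higher at day 9 with Myb shRNA and 2 of 17 with scrambled shRNA, with 0 lower in either arm, against 16.7% and 17.1% of all genes called, and Atp6v0a1 was among them in both, at 0.50 and 0.39, the second lost without any of several single arrays. The kidney and ionocyte isoforms Atp6v1b1, Atp6v1g3, Atp6v0a4 and Atp6v0d2 were detected on 0 arrays. Acid transporters beyond the pumps were tested for 4 of 21 genes, with 0 called by limma in any comparison. At an unadjusted p under 0.05 there were 1 at day 9 and 3 at day 3 between the shRNAs, 2 between the days with Myb shRNA, 0 with scrambled shRNA and 1 for the interaction. With the replicate block limma called 2 lower at day 3, 1 higher at day 9 with Myb shRNA between the days, and 1 for the interaction. Carbonic anhydrase 12 (Car12) was detected on 0 arrays.

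Potassium channels, which set the driving force for chloride exit, were higher for 3 of 6 tested genes and lower for 1 at day 3 with Myb shRNA, against 22.7% of all genes called, and 0 of 6 were called at day 9 (limma, with 2 at an unadjusted p under 0.05). Kcne2 at 0.97, Kcnk5 at 0.62 and Kcnk6 at 0.83 made up the rises at day 3, each lost without 2 or 3 single arrays, and Lrrc26 fell by 0.44. For Lrrc26 the shRNA effect differed between the days, by 0.68 (limma, adjusted p = 0.0334), where 1.65% of all genes were called. Over the 22 alternatives 0 to 3 potassium channels were called higher for this interaction. Kcne2 was lower at day 9 than at day 3 by 1.92 ± 0.30 with Myb shRNA (limma, adjusted p = 0.000628) and by 1.59 ± 0.30 with scrambled shRNA (limma, adjusted p = 0.00308). Kcnk1 fell by 0.43 and 0.77 in the same comparisons, the first lost without any of several single arrays. Of 4 tested water channels, Aqp5 rose by 0.48 ± 0.08 with Myb shRNA at day 9 (limma, adjusted p = 0.000771), and Aqp4 fell by 0.68 at day 3, a call lost without any of several single arrays. With the replicate block 2 water channels were higher and 1 lower at day 9, and 2 lower at day 3. Aqp5 was lower at day 9 than at day 3 in scrambled cultures by 0.50 ± 0.08 (limma, adjusted p = 0.000640).

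**Figure D5:**
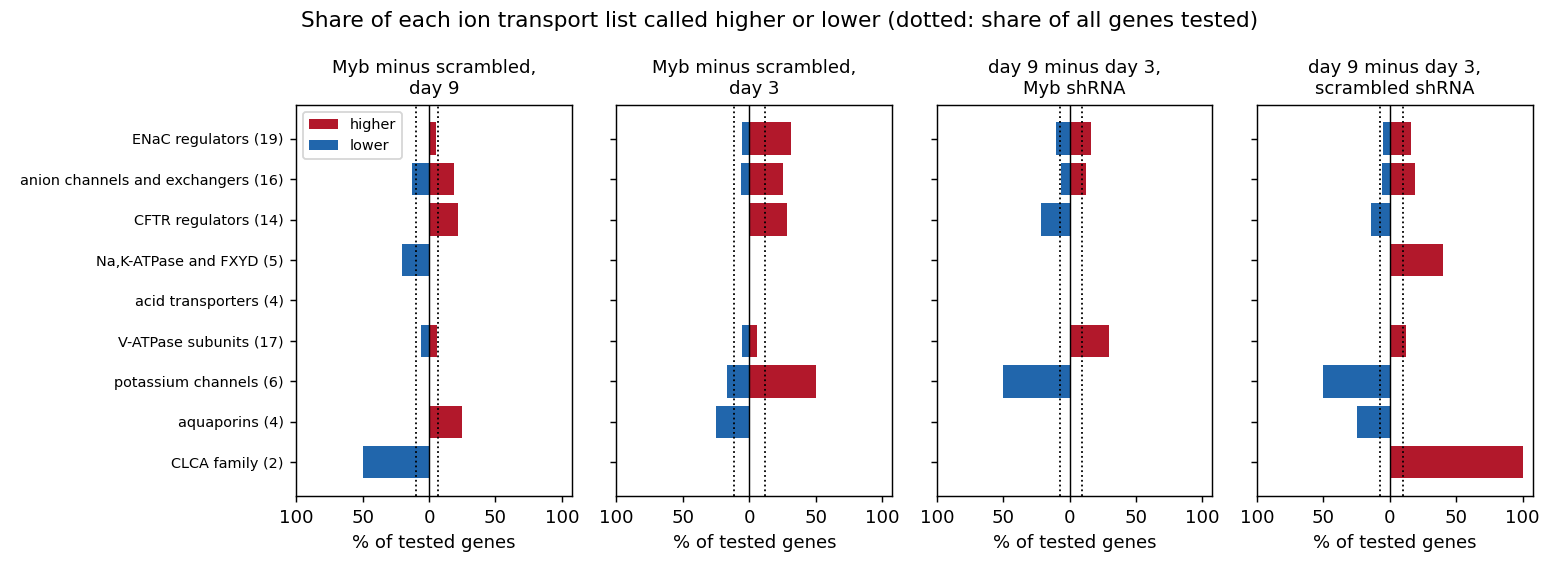
Share of the tested genes of each ion transport list (vertical axis, with the number tested in brackets) that were called higher (right) or lower (left) in the 4 comparisons, as a percentage of the list, with dotted lines at the share of all genes tested. Lists of under 7 tested genes, such as the CLCA family with 2, reach large shares with few genes.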

How the data were processed

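Per the labels, total RNA was biotin-labelled and hybridised to Illumina arrays, and per the submitters' processing notes BeadStudio 3.0 and limma were used. The deposited unnormalised table holds an intensity (signal, background already subtracted, since 28.8% to 34.4% of values per array lie below 0) and a detection p-value per probe, per the file headers. A second deposited table holds the authors' log2 values, with normalisation not given in the sources used here. It ranks probes as the signal does (rank correlation 1), with medians of 6.02 on each array, and served as an alternative.

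In R 4.3.3 with limma 3.58.1, neqc with an offset of 16 corrected and quantile-normalised the signals. The platform's annotation, possibly outdated, gave 35784 probes 1 gene name and left 9497 unnamed, and symbols were updated through a RefSeq table. Of 15526 probes detected on at least 3 arrays 13793 were named. The probe with the highest mean stood for a gene, 9381 in all. A model of the 4 group means (8 residual degrees of freedom) was moderated by eBayes with a trend, and p-values were adjusted by Benjamini-Hochberg over all genes, at a threshold of 0.05. The procedure was run on simulated data with arrays drawn independently, which says nothing of pairing or of the arrays numbered 3. The number 3 arrays were set aside, and the subunits compared by permutation, after the values had been seen.

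Replicate numbers were checked for pairing: in each 2-group comparison all same-numbered arrays deviated together (lowest correlations: shRNAs 0.297 at day 9 and 0.150 at day 3; days 0.107 with Myb and 0.267 with scrambled shRNA), so they were read as pairs from the data, not from the labels. The main fit has no term for these pairs, and the fit with the replicate number as a block is an alternative. The members and gene lists were chosen with earlier results of these data known. Genes named are all members, the list members called with the smallest p (up to 5 a list and comparison), up to 3 called cell type markers per list, the 3 genes nearest in pattern to a called member, and Myb. Other markers are given by counts.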

Additional observations from a re-analysis of the deposited data

How the results depend on the processing

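The shRNA calls of Scnn1b, Scnn1g, Slc12a2 and Atp6v1c2, and both day calls of Atp6v1c2, held in all 23 alternatives, while Scnn1a lost its call in 5 fits without a single array, as given above. Counts of called genes were, for the shRNAs at day 9, the shRNAs at day 3, the days with Myb shRNA, the days with scrambled shRNA and the interaction, 2331, 3400, 2367, 2817 and 715 with the replicate number as a block, 2742, 6564, 4777, 4673 and 3399 with array weights (whose estimation stopped before it converged), and 2411, 3602, 2478, 3523 and 1410 without the arrays numbered 3, a setting chosen after the data were seen. The interaction gave 80 calls among probes detected on all 12 arrays. Leaving out 1 array gave 949 to 1900, 1445 to 3023, 1039 to 1978, 811 to 2750 and 52 to 328 calls, and 4 to 5, 4 to 5, 1 to 1, 1 to 3 and 0 to 0 called members. Members called between the days numbered 4 in Myb and 3 in scrambled cultures with array weights, 3 and 3 without the arrays numbered 3, and 2 in Myb cultures with the replicate block, which adds Atp1b1 and changed no other member's call. The interaction called 2 members with array weights and 2 without the arrays numbered 3. The cause of these differences was not tested.

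All sign changes were of differences that are not called. When 1 array was left out, the shRNA difference of Atp1b1 at day 3 ranged from -0.21 to 0.14. Day differences in scrambled cultures ranged from -0.89 to 0.029 for Scnn1b, -0.15 to 0.045 for Slc12a2 and -0.11 to 0.24 for Atp1b1, and that of Scnn1a with Myb shRNA from -0.020 to 0.37. The interaction ranged from -0.24 to 0.15 for Scnn1a, -0.17 to 0.58 for Scnn1g, -0.29 to 0.041 for Slc12a2 and -0.17 to 0.13 for Atp6v1c2. Without the arrays numbered 3, signs changed for Atp1b1 between the shRNAs at day 3 (0.019), for Slc12a2 between the days with scrambled shRNA (0.042), for Scnn1g between the days with Myb shRNA (0.0020) and for the interaction of Scnn1a (0.074). With array weights they changed for the interaction of Scnn1a (0.10) and of Atp6v1c2 (0.082). The array chip could not be used as a block, since the file headers used here do not give it. Weak signals limit Cftr, Slc26a4 and Atp12a, for which no difference can be given.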
